A study of Mus musculus with 12 samples.

Results

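Entpd2, Slc6a11, Slc1a3 and Oxtr are 4 genes associated with the type I cell of the taste bud, a glia-like cell that wraps the other taste cells. They were followed across mouse taste epithelium that had been sorted on how brightly a Sox2 reporter glowed. The genes were picked by name, with their levels in these libraries already known, and make up 4 of the 52670 gene symbols measured. Their own levels are therefore given as a description, without a test. Epithelium came from the circumvallate papilla, which carries many taste buds and lies far back on the tongue, of adult Sox2GFP mice aged 11 to 12 weeks, in which green fluorescent protein (GFP) reports Sox2. Sox2 is a transcription factor of tongue progenitors and taste cells. Cells were sorted into 4 bins, Low, MedLow, HiMed and High. Each bin has 3 libraries, 12 in all, and every library is made from a pool of 7 to 13 mice. All bins share the Sox2GFP genotype and the enzymatic dissociation, and GFP-negative cells were discarded, so the lowest bin is still a GFP-positive one. Age and genotype do not differ between bins, and the labels do not say how the reporter allele was built.

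Taste cells release ATP, which excites the nerve, and smaller amounts of other transmitters such as serotonin, GABA and noradrenaline. Type I cells are known for removing these signals, much as astrocytes do at a synapse. They carry an enzyme that splits ATP outside the cell, take up glutamate and other transmitters, and pass potassium through channels. Of the genes described here, Entpd2 encodes the ecto-ATPase of the type I cell membrane, Slc6a11 a plasma membrane carrier that takes up GABA and is known from astrocytes, and Slc1a3 the glial glutamate carrier also called GLAST. Oxtr encodes the oxytocin receptor, a signalling receptor and not a clearance protein.

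The reporter and Sox2 followed the order of the bins. Mean Sox2 was 70.3, 98.0, 171 and 373 CPM (counts scaled to a common library total) from Low to High. Libraries held 25.7 M to 55.6 M counts. Markers of general taste bud cells summed to 2958 to 5136 CPM in the High libraries and to 495.5 to 1280 in the others. The 5 markers of taste precursor cells summed to 756 to 852 CPM in High, 298 to 359.5 in HiMed and 69.3 to 101 in Low and MedLow, all 5 rising between Low and High in edgeR, and Shh among them had a mean of 128 CPM in High and 0.140 in Low. These markers were highest in High, as were Entpd2, Oxtr and Gad2. Between MedLow and HiMed all 5 markers rose, while mean Entpd2 went from 14.9 to 12.2 CPM. The part of the precursor markers in the levels of these genes was not tested. The 11 markers of type II cells, which hold the sweet, umami and bitter receptors, summed to 427 to 505 CPM in High and to 594 to 1083 elsewhere. Each bin is thus a mixture of cell types, and in such samples fewer cells of a type and less RNA per cell cannot be told apart. High replicate 3 stood apart from the other High libraries, with the highest sum of taste bud markers (5136 CPM, against 3657 and 2958) and the lowest sum of the 7 basal keratinocyte markers (5392 CPM, against 7238 and 8230).

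The promoters of the 4 genes are shown first, and their part in the genes' levels was not tested. RefSeq (build GRCm38.p6) places the 250 bases before the annotated start of Entpd2 at chr2:25395624-25395873 on the plus strand, of Oxtr at chr6:112489826-112490075 on the minus strand, of Slc6a11 at chr6:114130991-114131240 on the plus strand and of Slc1a3 at chr15:8710808-8711057 on the minus strand. All 4 genes were matched by symbol. This build is older than the mm39 build named for the deposited values, and the sequences serve only to show the genes' starts. Each is written 5′ to 3′ along the gene, and capitals mark GGGCGG (the GC box, a general promoter element) and ACAAT (a core of Sox factor sites), on either strand.
Entpd2: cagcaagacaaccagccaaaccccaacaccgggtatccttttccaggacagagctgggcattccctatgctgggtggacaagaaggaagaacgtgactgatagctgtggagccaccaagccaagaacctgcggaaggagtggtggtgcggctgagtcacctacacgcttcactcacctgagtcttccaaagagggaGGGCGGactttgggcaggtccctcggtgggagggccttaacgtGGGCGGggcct
Oxtr: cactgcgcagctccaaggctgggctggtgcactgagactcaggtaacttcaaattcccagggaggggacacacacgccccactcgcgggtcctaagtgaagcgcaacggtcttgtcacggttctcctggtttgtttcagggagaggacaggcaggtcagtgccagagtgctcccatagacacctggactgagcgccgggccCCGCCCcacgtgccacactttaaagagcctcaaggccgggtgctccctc
Slc6a11: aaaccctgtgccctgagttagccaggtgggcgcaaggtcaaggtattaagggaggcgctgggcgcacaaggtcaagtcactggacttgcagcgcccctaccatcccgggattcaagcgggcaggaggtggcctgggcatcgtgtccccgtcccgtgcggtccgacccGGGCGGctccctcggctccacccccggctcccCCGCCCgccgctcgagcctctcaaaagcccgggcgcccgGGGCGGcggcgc
Slc1a3: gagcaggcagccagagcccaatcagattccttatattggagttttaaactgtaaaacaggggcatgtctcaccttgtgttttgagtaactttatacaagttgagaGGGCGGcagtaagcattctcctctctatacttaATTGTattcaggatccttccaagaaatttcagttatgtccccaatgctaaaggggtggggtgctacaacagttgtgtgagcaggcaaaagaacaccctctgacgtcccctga

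The Slc6a11 promoter was the richest in G and C of the 4, at 71.2% with 25 CpG pairs, and the Slc1a3 promoter the poorest, at 44.8% with 2. Entpd2 had 59.2% and 9 CpG pairs and Oxtr 61.6% and 12. The median over 32851 mouse promoters of this length was 52.4% and 6. GGGCGG was found 2 times in Entpd2, 1 time in Oxtr, 3 times in Slc6a11 and 1 time in Slc1a3, and in 32.7% of all promoters. ACAAT was found in the Slc1a3 promoter alone, 112 bases before the start, and in 27.7% of all promoters. The sequence TATAAA also occurred in Slc1a3 alone (161 bases before the start, 12.4% of all promoters), TGACG in Slc1a3 alone (13 bases before the start, 17.8%) and CACGTG in Oxtr alone (43 bases before the start, 6.02%). None of these matches overlaps another. They are matches of letters, and binding was not measured.

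The 4 genes did not share 1 order across the bins. Entpd2 and Oxtr had their highest level in High, Slc6a11 in HiMed and Slc1a3 in Low. MedLow, the remaining bin, held the highest level of none of them. The 3 clearance genes, Entpd2, Slc6a11 and Slc1a3, thus had their peaks in 3 separate bins.

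**Figure D1:**
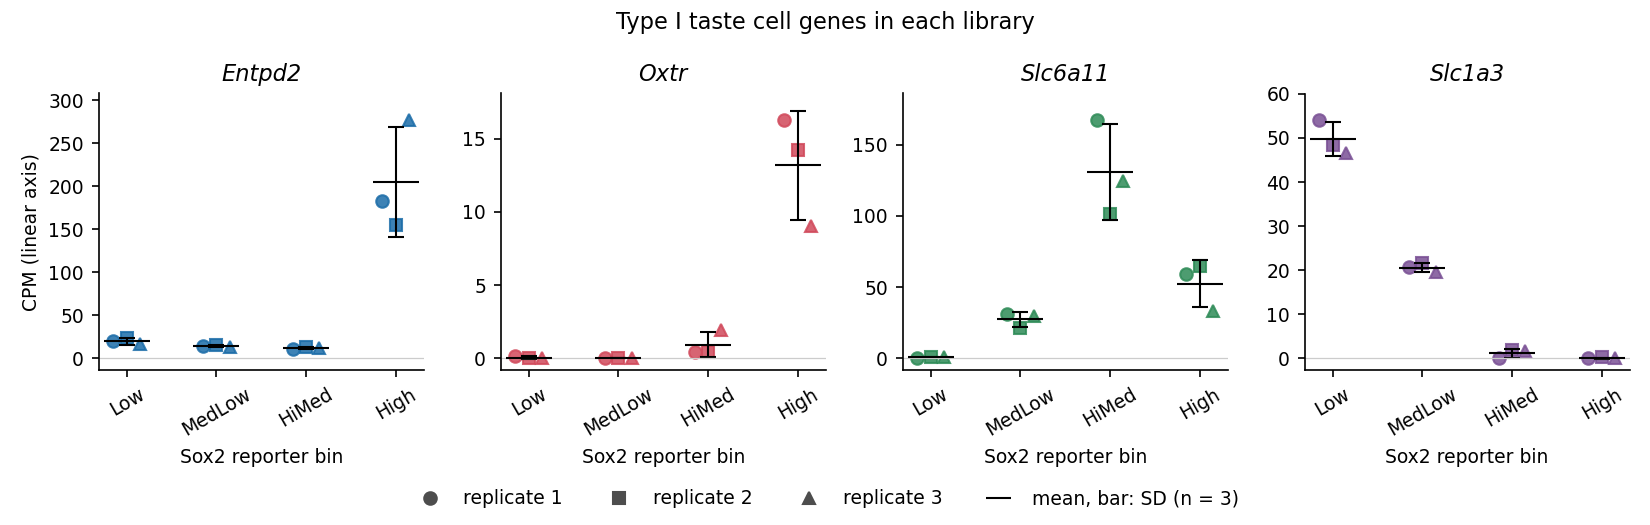
CPM (linear axes, scaled separately for each gene) of Entpd2, Oxtr, Slc6a11 and Slc1a3 in the 12 libraries, by Sox2 reporter bin; symbols are the replicates, the long bar is the bin mean and the error bar the SD (n = 3). Entpd2 and Oxtr stand out in High, Slc6a11 in HiMed with High between it and MedLow, and Slc1a3 in Low with less than 2 CPM in HiMed and High.

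Entpd2, which removes ATP, was measured at 183, 155 and 277 CPM in High replicates 1, 2 and 3. In Low it had 19.8, 23.6 and 16.2 CPM, in MedLow 14.9, 16.2 and 13.6, and in HiMed 10.9, 13.3 and 12.4. Every High library lay far above all 9 others, which ranged from 10.9 to 23.6 CPM. The bin means were 19.9 ± 3.68 (SD, n = 3), 14.9 ± 1.29, 12.2 ± 1.23 and 205 ± 64.1 CPM. High held 81.4% of the summed bin means. The fitted log2 fold change was 3.37 (SE 0.21) for High over Low and 4.07 (SE 0.22) for High over HiMed. Among the dimmer bins the order ran against the reporter, Low above MedLow above HiMed, with log2 differences of -0.41 (SE 0.20) and -0.29 (SE 0.20). Their libraries touched without overlapping in CPM. In TPM (a scaled level that allows for transcript length) HiMed, at 11.3 to 12.9, overlapped MedLow, at 11.8 to 13.7, so those 2 bins did not differ beyond their spread on that scale.

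Slc6a11, which takes up GABA, was measured at 167, 101 and 124 CPM in HiMed replicates 1, 2 and 3. High had 59.2, 64.8 and 33.5 CPM, MedLow 31.3, 21.7 and 29.5, and Low 0.636, 0.686 and 1.01. No 2 bins overlapped, although High replicate 3 came close to the MedLow libraries. The means were 0.778 ± 0.204, 27.5 ± 5.14, 131 ± 33.5 and 52.5 ± 16.7 CPM (SD, n = 3) from Low to High, so that HiMed held 61.9% of their sum and High 24.8%. The largest step was the first one, a log2 difference of 5.13 (SE 0.36) between MedLow and Low. HiMed was above MedLow by 2.25 (SE 0.27) and High was below HiMed (log2 fold change -1.32, SE 0.26). High was still 6.06 (SE 0.37) above Low.

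Slc1a3, which takes up glutamate, was measured at 54.1, 48.5 and 46.6 CPM in Low and at 20.6, 21.7 and 19.5 in MedLow. HiMed replicates 2 and 3 had 1.81 and 1.68 CPM, and HiMed replicate 1 had 0.0234 CPM, which is 1 count. High replicate 2 had 0.218 CPM (12 counts) and the other High libraries had 0. Across the 3 dimmer bins its means had the same order as those of Entpd2, Low above MedLow above HiMed, though Entpd2 changed far less. The genes parted in High. Low held 69.5% and MedLow 28.8% of the summed bin means of 49.7 ± 3.89, 20.6 ± 1.07, 1.17 ± 0.996 and 0.0725 ± 0.126 CPM (SD, n = 3). The log2 fold change was -1.27 (SE 0.67) for MedLow over Low and -4.13 (SE 0.80) for HiMed over MedLow, without overlap of the libraries. High and HiMed overlapped, because HiMed replicate 1 lay below High replicate 2, and their fitted difference of -3.84 had an SE of 1.20. For High over Low the value was -9.24 (SE 1.10). All of the High counts come from replicate 2. Without it High was at 0 counts, and against a floor of 3 counts over the remaining High libraries the log2 difference was -10.6 from Low and -5.21 from HiMed, each a bound on a difference that may be larger.

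Oxtr had the lowest peak of the 4 genes, although in High Slc1a3 was scarcer. High replicates 1, 2 and 3 had 16.3, 14.2 and 9.03 CPM, and HiMed had 0.444, 0.438 and 1.94. Low replicate 1 had 0.165 CPM (7 counts), and the remaining Low libraries and all MedLow libraries had 0 counts. A count of 0 over the 3 MedLow libraries still allows 3 counts, or 0.0254 CPM, a limit that covers counting error only. Against that limit High was at least 519-fold and HiMed at least 37.0-fold higher than MedLow. The mean of 13.2 ± 3.74 CPM in High (SD, n = 3) was 93.0% of the summed bin means. High was above HiMed by 3.79 (SE 0.81) and above Low by 7.64 (SE 1.06) on the log2 scale. The HiMed value leaned on replicate 3, without which the High over HiMed difference was 4.89 and HiMed was at least 4.12 log2 units above MedLow, against 5.21 with it. Oxtr in Low and MedLow could not be told from 0 at this depth, apart from the 7 counts of Low replicate 1.

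**Figure D2:**
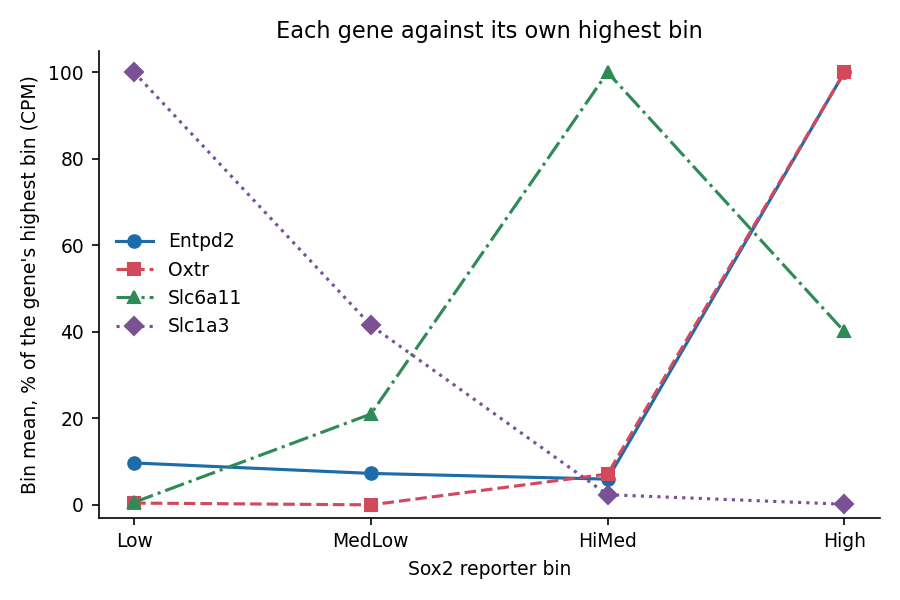
Bin mean of each gene as a percentage of its own highest bin (CPM, linear axis) across the Sox2 reporter bins; lines join the 4 bin means of a gene. The Entpd2 and Oxtr lines meet at 100% in High after 5.95% and 7.13% in HiMed, Slc6a11 is at 100% in HiMed and 40.1% in High, and Slc1a3 is at 100% in Low and 41.5% in MedLow.

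Compared per transcript length, the genes that made up the group's RNA changed from bin to bin. In Low, Slc1a3 was 53.1% and Entpd2 46.0% of the summed TPM of the 4 genes. In MedLow, Entpd2 was 39.2%, Slc6a11 31.4% and Slc1a3 29.4%. No gene dominated there. In HiMed, Slc6a11 alone was 79.8%, and in High, Entpd2 alone was 86.9% with Slc6a11 at 10.7% and Oxtr at 2.35%. The sum itself was 36.9 ± 2.625, 32.5 ± 1.885, 66.0 ± 15.7 and 233 ± 57.9 TPM (SD, n = 3) from Low to High. Among the 17432 genes tested, mean Entpd2 in High, at 205 TPM, lay above 96.1% of genes, while Oxtr in the same bin, at 5.13 TPM, lay above 37.4%.

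**Figure D3:**
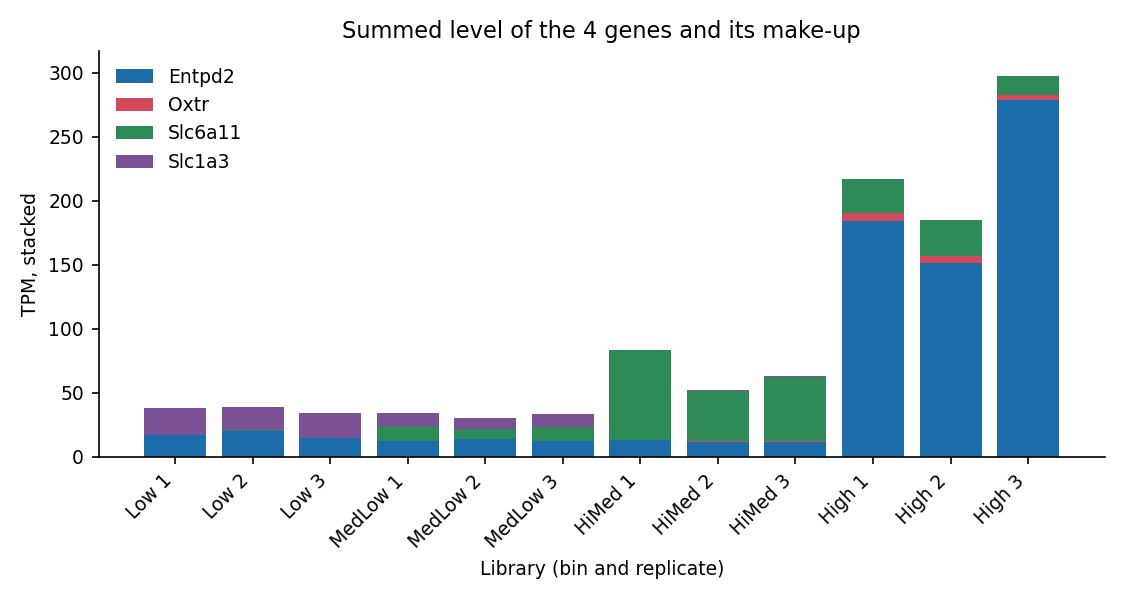
Stacked TPM (linear axis from 0) of Entpd2, Oxtr, Slc6a11 and Slc1a3 in each of the 12 libraries. Slc1a3 is seen in the Low and MedLow bars, Slc6a11 fills most of the HiMed bars, and Entpd2 fills most of the High bars, the tallest of which is High replicate 3.

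Within a bin the genes also went apart. High replicate 3 had the most Entpd2 of the High libraries and the least Oxtr and Slc6a11. The TPM ratio of Entpd2 to Slc6a11 was 18.8 there, against 7.05 and 5.40 in High replicates 1 and 2. The ratio of Entpd2 to Oxtr was 74.9, against 29.4 and 28.1. Slc6a11 and Oxtr kept closer to each other, at ratios of 4.16, 5.21 and 3.98. High replicate 3 was also the library with the most taste bud markers and the fewest basal keratinocyte markers. The part of these in the gene ratios was not tested.

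Over the 12 libraries, Pearson's r of log2(CPM + 0.5) was 0.884 between Entpd2 and Oxtr, 0.449 between Oxtr and Slc6a11 and 0.12 between Entpd2 and Slc6a11. For Slc1a3 the values were negative, at -0.575 with Entpd2, -0.79 with Slc6a11 and -0.81 with Oxtr. Slc1a3 and Entpd2 still had their means in the same order across Low, MedLow and HiMed, and parted in High. The sizes were unlike, with a log2 fold change for HiMed over Low of -5.40 (SE 0.83) for Slc1a3 and -0.70 (SE 0.20) for Entpd2. The points come in 4 bins of 3 libraries, so the values of r restate the bin means and carry no p-value. Over the same 12 libraries and scale, 4 lists were drawn from 10092 candidates of at least 10 CPM in some bin. These too restate the bin means, so their lack of a shared gene is no separate result. The genes most like each member were as follows. For Entpd2 they were the receptor Fgfrl1 (r = 0.99), Arsi (0.98), the chloride channel Ano1 (0.98), the phosphatase Ptpro (0.98) and Ccdc141 (0.98). For Oxtr they were the calcium channel subunit Cacnb3 (0.99), Cmas (0.98), the cadherin Pcdh15 (0.97), the protease Prss12 (0.97) and Srek1ip1 (0.97). For Slc6a11 they were the carboxylesterase Ces1d (0.99), Brinp1 (0.99), the cysteine dioxygenase Cdo1 (0.99), the potassium channel subunit Kcns3 (0.99) and the transcription factor Twist2 (0.99). For Slc1a3 they were the semaphorin receptor Plxna2 (0.99), the metallothionein Mt3 (0.99), Ly6c1 (0.99), P3h2 (0.99) and the lactate carrier Slc16a1 (0.99). Levels differed widely inside these lists, since r compares patterns alone: Ces1d reached 1245 CPM in HiMed and Brinp1 24.1. The size of the change differed as well. Oxtr had means of 0.0549 CPM in Low and 13.2 in High, where Cacnb3 had 32.2 and 65.6 and Pcdh15 had 0 and 50.9.

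Kcnj1, a potassium channel also used as a type I cell marker, was highest in High, as Entpd2 and Oxtr were. Like Oxtr, and unlike Entpd2, it had a higher mean in HiMed than in MedLow. Kcnj1 had 37.0, 34.8 and 80.7 CPM in High replicates 1 to 3, 1.24 to 2.70 in HiMed and at most 0.184 in MedLow and Low. The libraries of High lay above all others, and High replicate 3 was the highest, as for Entpd2. Kcnj1 was called higher in High than in Low (log2 fold change 9.74, SE 0.92, edgeR adjusted p = 1.22e-05) and than in HiMed (4.55, SE 0.62, edgeR adjusted p = 0.000538). In RefSeq, Slc6a11 is overlapped by Gm8132, which had at most 0.0260 CPM, and by Gm52916, not analysed here, and the sources used here do not say whether counting used strand.

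The wider question was whether other genes that remove transmitters, or respond to them, moved with any member. In all, 147 further genes in 10 lists were examined, of which 101 had enough counts to be tested in edgeR's quasi-likelihood test, with adjustment over all 17432 genes. Between High and Low, 27 of the 101 rose and 27 fell at an adjusted p below 0.05, where 20% of all genes tested rose and 21.2% fell. Between High and HiMed 14 rose and 17 fell, against 10.6% and 11.7% of all genes. Between HiMed and MedLow 17 rose and 9 fell, against 7.33% and 6.30%, and between MedLow and Low 12 rose and 7 fell, against 3.96% and 2.50%. The share of rises between High and Low depended on the scaling, with 31 up and 22 down when libraries were scaled by size alone, and 27 up and 13 down on log2(TPM + 1), a scale that also lifted the median gene by 0.14. The split between HiMed and MedLow was 17 and 5 by library size and 12 and 3 on log2(TPM + 1), and between MedLow and Low it was 10 and 3 on the latter scale. Without MedLow replicate 2 the HiMed over MedLow count was 16 genes. Without Low replicate 1, Low replicate 3 or MedLow replicate 1 the MedLow over Low count was 12, 11 and 12.

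Genes of the ATP and adenosine pathway outside the cell joined Entpd2 only in part. Of 12 tested, 6 rose and 3 fell between Low and High, or 75% against 41.2% of all genes, with a median log2 fold change of 1.01 against -0.0073 over all genes. Entpd1, a sister ecto-ATPase known from vessels and leukocytes, had 8.71, 8.47 and 23.8 CPM in High and at most 1.39 elsewhere (High over Low 4.54, SE 0.67, edgeR adjusted p = 7.26e-05). Entpd3, a further Entpd gene of this list, had means of 30.0, 51.0, 63.45 and 63.7 CPM from Low to High. It rose between Low and High (1.09, edgeR adjusted p = 6.86e-06), and its HiMed and High libraries overlapped. Enpp2, which makes the lipid signal lysophosphatidic acid and can split nucleotides, rose from 1.77 ± 1.49 in Low and 13.2 ± 2.58 in HiMed to 109 ± 26.8 CPM in High (5.87 over Low, SE 0.64, edgeR adjusted p = 6.72e-05). Enpp1, which makes pyrophosphate from ATP, went the other way, from 31.6 ± 0.0316 in Low and 25.5 ± 1.70 in HiMed to 5.99 ± 1.53 CPM in High (-2.40 over Low, SE 0.16, edgeR adjusted p = 1.95e-08). Of the steps that follow ATP removal, Nt5e, which turns AMP into adenosine, had means of 28.3, 49.1, 103 and 85.5 CPM from Low to High, and its HiMed and High libraries overlapped. Ada, which breaks adenosine down, had 24.5, 145, 200 and 8.86 CPM, and was lower in High than in HiMed by a log2 fold change of -4.49 (SE 0.50, edgeR adjusted p = 0.000305). HiMed replicate 1 had 67.5 CPM of Ada, against 252 and 279 in replicates 2 and 3. The 9 suprabasal keratinocyte markers summed to 7841 CPM in that library and to 24280 and 18100 in its fellow libraries, to 25750 to 27650 in MedLow, 8010 to 9850 in Low and 1357 to 2187 in High, with none at 0, and their part in the level of Ada was not tested. The adenosine carrier Slc29a1 fell between Low and High by 2.02 on the log2 scale. Of the 4 Entpd genes whose enzymes sit on inner membranes, 2 rose between Low and High, Entpd5 by 1.07 and Entpd4 by 0.29 on the log2 scale (edgeR adjusted p = 4.53e-05 and 0.0218). The Entpd4 call was lost on log2(TPM + 1) (limma adjusted p = 0.0806) and without Low replicate 1, Low replicate 3 or High replicate 3 (edgeR adjusted p = 0.0818, 0.0728 and 0.0794).

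Among carriers related to Slc1a3, 1 of 5 tested rose and 1 fell between Low and High, or 40% against 41.2% of all genes. Slc1a5, a glutamine carrier, rose from 23.8 ± 4.20 in Low and 36.5 ± 0.569 in HiMed to 91.1 ± 16.95 CPM in High (1.93 over Low, SE 0.145, edgeR adjusted p = 5.19e-08). Slc1a4, a carrier of neutral amino acids, had 183 CPM in Low and 145 in High and fell by 0.34 on the log2 scale, a call absent in TPM (adjusted p = 0.41 in limma on log2(TPM + 1)). Slc1a1 and Slc1a2, the glutamate carriers best known from neurons and astrocytes, had means of at most 1.47 and 0.327 CPM in any bin and were not called in any comparison.

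The enzymes of glutamate and GABA split by step. Gad2, which makes GABA, was near 0 in Low and MedLow (0 to 0.532 CPM), 3.15 to 6.31 CPM in HiMed and 89.5, 86.3 and 126 CPM in High. It rose by 9.53 (SE 0.75, edgeR adjusted p = 5.27e-06) between Low and High and by 4.26 between HiMed and High, as Entpd2 and Oxtr were higher there. Gad1, the other GABA-making enzyme, fell from 2.93 ± 0.729 to 0.326 ± 0.297 CPM between Low and High (-3.14, SE 0.94, edgeR adjusted p = 0.0135). Glul, the glutamine synthetase by which glia convert glutamate after uptake, had means of 224, 715, 998 and 654 CPM from Low to High. Its peak thus lay in HiMed, the bin where Slc6a11 was highest, and all 4 comparisons were called, with log2 fold changes of 1.68 for MedLow over Low, 0.48 for HiMed over MedLow and -0.61 for High over HiMed. Abat, which breaks GABA down, averaged at most 1.38 CPM and was not called. The vesicular GABA carrier gene Slc32a1 had 0 counts in all 12 libraries.

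Other carriers of the Slc6 family went in both directions. Of 12 tested, 4 rose and 4 fell between Low and High, or 66.7% against 41.2% of all genes. Slc6a13, another GABA carrier, had 5.76, 4.75 and 12.0 CPM in High, 0.410 to 0.888 in HiMed and 0 counts in MedLow and Low, at least 265-fold higher in High than in Low. High replicate 3 had the most Slc6a13 and the most Entpd2 of the High libraries, and the least Slc6a11. Slc6a14 and Slc6a20a, carriers of amino acids, rose by 3.60 and 4.28 between Low and High. Slc6a19, also an amino acid carrier, had 3.24 ± 1.38 CPM in Low and 0 counts in High, at least 162-fold lower. Slc6a4, the serotonin carrier, fell from 59.1 ± 1.96 to 20.04 ± 4.99 CPM (-1.56, SE 0.16, edgeR adjusted p = 1.87e-06). Slc6a2, the noradrenaline carrier, had means of 15.9, 12.1, 5.22 and 25.2 CPM from Low to High and rose between HiMed and High by 2.28 (SE 0.26, edgeR adjusted p = 1.73e-05).

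Genes that clear amines and acetylcholine rose more often than they fell between Low and High, 5 of 8 tested against 1, where 20% of all genes rose and 21.2% fell. Without Low replicate 1, Low replicate 3 or High replicate 1, 3 of them rose. Between HiMed and High 0 rose in edgeR (1 at an unadjusted p below 0.05, and 0 in DESeq2). Maoa, which degrades serotonin and noradrenaline, had means of 25.96, 41.3, 59.8 and 52.3 CPM from Low to High. Slc29a4, a low-affinity amine carrier, rose by 3.30 between Low and High, from 0.961 ± 0.557 to 9.66 ± 2.53 CPM.

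**Figure D4:**
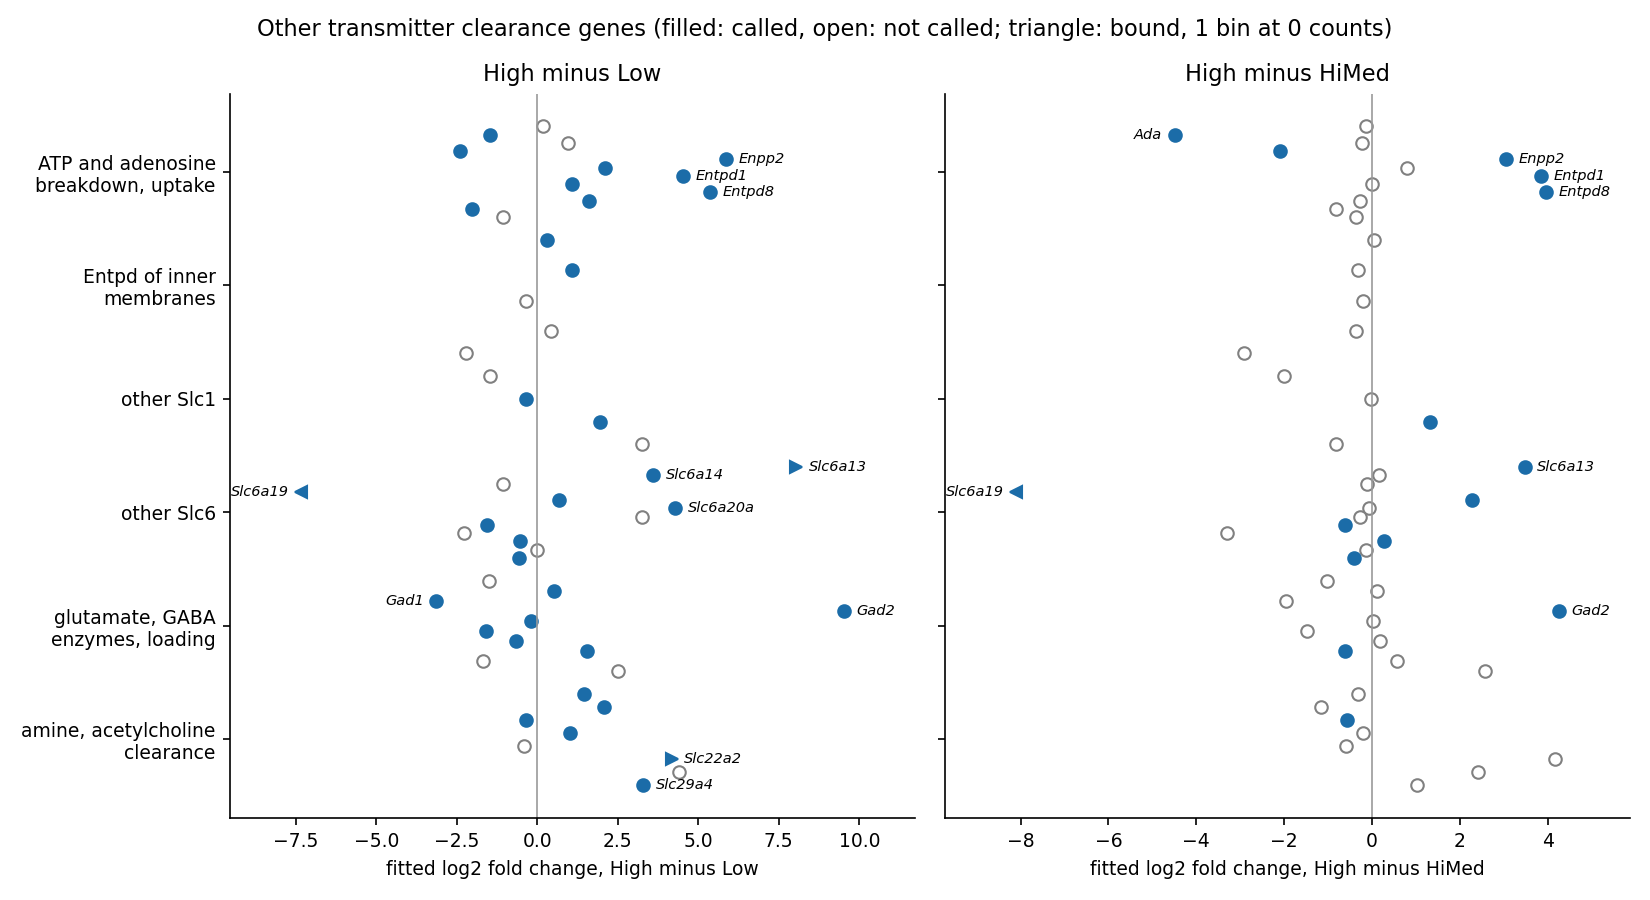
Fitted log2 fold change of each tested clearance gene other than the 4 members, High minus Low (left) and High minus HiMed (right), grouped by list; filled symbols passed an adjusted p of 0.05 in edgeR and open ones did not, and triangles are bounds where 1 bin had 0 counts. Both panels show genes on each side of 0 within a list, with Gad2, Enpp2, Entpd1 and Slc6a13 far to the right and Slc6a19 far to the left.

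The genes that sense these transmitters were followed too. Of 18 purine release and receptor genes tested, 5 rose and 3 fell between Low and High, although 0 fell on log2(TPM + 1). These are 44.4% of the list, close to the 41.2% called among all genes. P2ry2, a receptor for ATP and UTP, had means of 11.3, 19.1, 60.0 and 111 CPM from Low to High (3.30 for High over Low, SE 0.24, edgeR adjusted p = 5.46e-07). P2rx4, an ATP-gated channel, rose from 22.7 ± 1.02 to 48.5 ± 13.6 CPM (1.09, SE 0.16). P2rx2, the channel subunit by which taste nerves sense ATP, had 7.44 ± 1.78 CPM in High and 0 counts in Low, at least 262-fold higher. P2ry14, a receptor for UDP-sugars, had means of 0.188, 2.75, 18.1 and 14.02 CPM and so had its highest mean in HiMed, as Slc6a11 did. Of 20 glutamate and GABA receptor genes tested, 0 rose in edgeR (1 at an unadjusted p below 0.05, and 1 in DESeq2) and 6 fell between Low and High, or 30% of the list against 41.2% of all genes. The count of 6 was not stable, with 2 or 3 left without any 1 of the Low or MedLow libraries or High replicate 3, and 1 on log2(TPM + 1). Gabbr1, a subunit of the metabotropic GABA receptor, fell from 27.5 ± 1.90 to 8.29 ± 1.68 CPM (-1.73, SE 0.16, edgeR adjusted p = 3.81e-07). Gabrp, a subunit of the GABA-gated channel, fell between HiMed and High, from 41.4 ± 10.9 to 7.39 ± 2.70 CPM (-2.48, SE 0.34, edgeR adjusted p = 0.000302).

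The rest of the oxytocin system was little seen. Oxt, which encodes oxytocin, had 0 counts in Low, HiMed and High, and some in MedLow but too few to be tested. Lnpep, an aminopeptidase that degrades oxytocin, was the one member of that list above 20 CPM and had means of 87.8, 83.2, 68.8 and 63.5 CPM from Low to High. It fell by 0.47 on the log2 scale in edgeR (SE 0.076, adjusted p = 0.000124), a call absent in TPM (adjusted p = 0.20 in limma on log2(TPM + 1)). Cd38, which is needed for oxytocin release in the brain, averaged at most 1.32 CPM and was not called in edgeR (High over Low 3.815, SE 1.74, adjusted p = 0.0941), while DESeq2 called it higher in High.

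Type I cells are called glia-like, and a list of 15 genes of brain astroglia was followed for that reason. Of 10 tested, 4 fell between Low and High and 1 rose, Nes, a call lost without Low replicate 2 or High replicate 2 (edgeR adjusted p = 0.0561 and 0.0574). That is 50% of the list, where 41.2% of all genes were called. Gja1, which encodes the main gap junction protein of astrocytes and is also plentiful in keratinocytes, had 1021, 1259, 705 and 452 CPM. Apoe, a lipid carrier, had its means in the same order as Slc1a3, at 178, 110, 19.8 and 5.73 CPM (High over Low -4.96, SE 0.23, edgeR adjusted p = 1.12e-08). Aqp4, the astrocyte water channel, had means of 0.598, 12.4, 13.2 and 0.290 CPM from Low to High. Its highest mean lay in HiMed, as for Slc6a11, but its order over all bins was that of none of the 4 members. Fabp7 and Hepacam had 0 counts in MedLow, HiMed and High, and Kcnj10 had 0 in MedLow and HiMed.

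Markers of other cells were set beside Slc1a3. The 7 basal keratinocyte markers had summed levels between 35010 and 35550 CPM in the Low libraries, between 22940 and 24590 in MedLow, between 14250 and 14600 in HiMed and between 5392 and 8230 in High, and all 7 fell between Low and High. Krt15 among them had means of 6226, 4885, 659 and 26.4 CPM, an order shared with Slc1a3. The 8 fibroblast markers summed to between 591 and 632 CPM in Low, between 101 and 187 in MedLow, between 34.7 and 39.3 in HiMed and between 8.37 and 17.4 in High. Dcn, a matrix proteoglycan, made up 608 CPM of the Low sum on average and carried the fall. Of the 3 fibroblast markers tested, Dcn fell and Pdgfra went the other way, with means of 2.67, 1.16, 2.02 and 5.99 CPM from Low to High (1.16 for High over Low, SE 0.43, edgeR adjusted p = 0.0418, a call lost without Low replicate 1, Low replicate 2, High replicate 2, High replicate 3 or any 1 MedLow library). Lum was at 0 in every bin, and Col1a2 and Col3a1 were at 0 in MedLow. The 7 Schwann cell markers summed to 96.3 to 104.5 CPM in Low and to 76.3 to 92.0 in the other bins. Of the 5 tested, 2 fell and 1 rose between Low and High, with a median log2 fold change of 0.65. The one that rose was Ngfr, a neurotrophin receptor, from 22.7 ± 4.23 to 53.7 ± 9.14 CPM (1.24, SE 0.15, edgeR adjusted p = 9.17e-06). Sox10, which defines Schwann cells and is also made by gland cells, had 6.40, 5.33 and 9.19 CPM in the Low libraries and no more than 0.463 in any MedLow library. It was at 0 in HiMed and at 0, 0 and 0.0996 in High. Cdh19 was at 0 in every bin and Foxd3 was at 0 in Low, MedLow and High. The 6 gland markers summed to 711 to 2045 CPM in Low to 146 to 249 in MedLow, to 34.8 to 66.8 in HiMed and to 14.65 to 117 in High, with none at 0. Muc5b and Dmbt1 among them fell between Low and High, and Aqp5 rose. The 7 leukocyte markers summed to between 30.8 and 47.8 CPM in Low, between 7.17 and 16.1 in MedLow, between 24.9 and 58.7 in HiMed and were 99.9, 114 and 304 in High replicates 1, 2 and 3. Lyz2, a lysozyme of macrophages, carried that sum, with means of 32.7, 11.0, 35.9 and 172 CPM, and was called higher in High than in Low. Csf1r and Cd74 were called lower, the Csf1r call being lost without Low replicate 3 (edgeR adjusted p = 0.054) and on log2(TPM + 1) (limma adjusted p = 0.0527). The median over the 4 tested was -3.17 on the log2 scale. Cd3e, Csf1r, Cd207 and Cd52 were at 0 in High, and Cd3e was at 0 throughout. High replicate 3, with the highest sum, also had the most Entpd1. The part of these cells in the level of Slc1a3, or of leukocytes in that of Entpd1, was not tested.

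**Figure D5:**
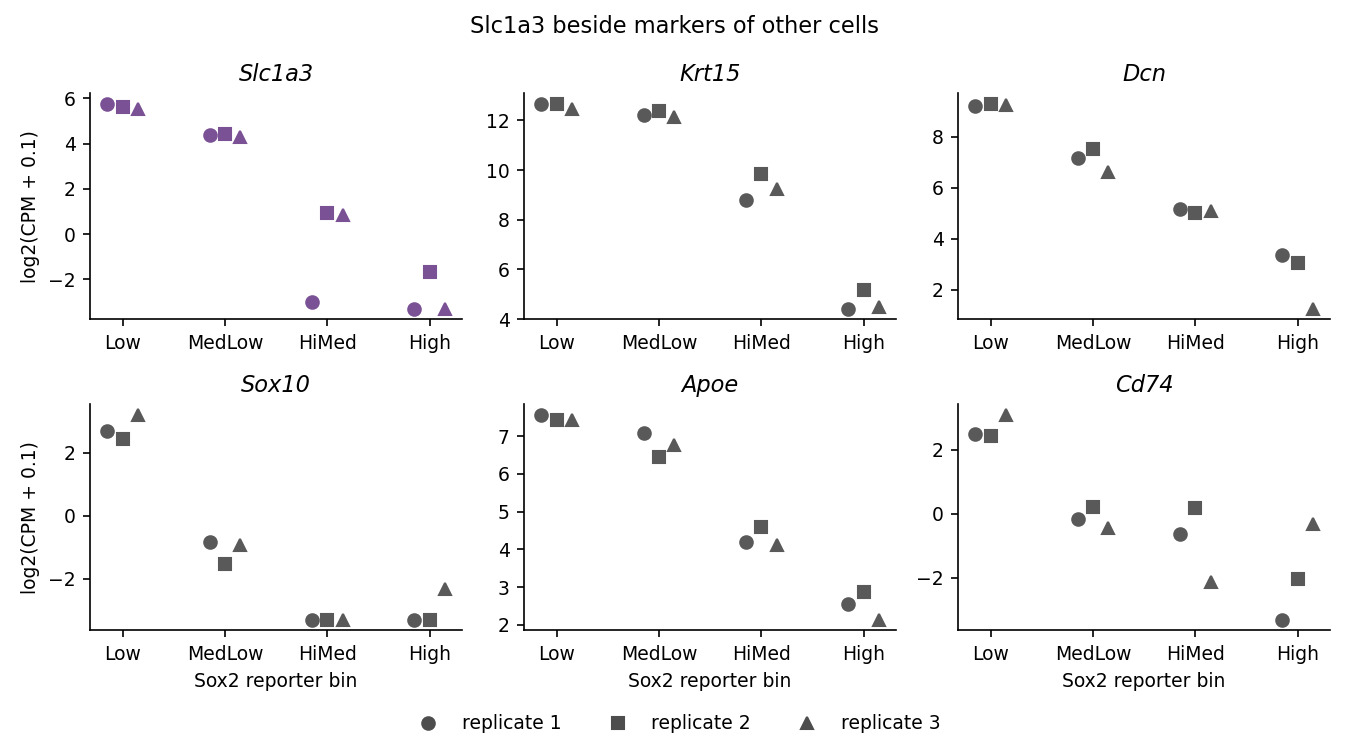
log2(CPM + 0.1) of Slc1a3 and of Krt15, Dcn, Sox10, Apoe and Cd74 in the 12 libraries by Sox2 reporter bin, with separate axes; symbols are the replicates. Slc1a3, Krt15, Dcn and Apoe step down from Low to High, Sox10 and Cd74 are highest in Low, and HiMed replicate 1 has less Slc1a3 than its 2 fellow libraries. Dcn, Sox10 and Cd74 are single genes of their marker lists. Pdgfra, Ngfr and Lyz2, of the same lists and not shown, had higher means in High than in Low.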

How the data were processed

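Gene expression was measured by RNA-seq in 12 libraries. Per the submitters' processing notes, Salmon 1.4.0 was used, and DESeq2 1.28.1 and the build mm39 are named without a stated role. The authors deposited expected counts per gene symbol, unscaled, and TPM values. The sources used here do not give the annotation, the use of strand or how transcripts were joined into genes.

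The main test, on rounded expected counts, was edgeR 4.0.16 under R 4.3.3 (quasi-likelihood, robust estimate of the spread, TMM scaling, filterByExpr with a minimum count of 10). Of the symbols, 17432 passed and 35238 did not, which carried 0.0339% of counts. A single model with the bin as factor used all 12 libraries, so the comparisons share libraries and 1 estimate of the spread. Benjamini-Hochberg adjustment ran over all genes tested for every comparison, with calls at an adjusted p below 0.05. A standard error is the one implied by the F statistic. CPM values use TMM scaling. TPM values were tested with limma 3.58.1, and DESeq2 1.42.0 was a further alternative. The code was tested on simulated data.

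The 4 genes and all gene lists were chosen with earlier results of these data known, so no p adjusted over a list alone and no list test is given. The rule for naming took the 4 genes, Kcnj1, and up to 4 called genes per list and comparison with the largest change and at least 1 CPM. It also took list genes of at least 20 CPM, and the 5 genes most like each member, leaving out clone and predicted names. Not every gene that met this rule is named. Genes given as overlapping, as markers of other cells, by a low level or as examples of a list beyond this rule were chosen after their values were seen. Acp3 was read as Acpp, its symbol in the files.

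Replicate numbers 1 to 3 occur in every bin, and the series describes replicates as pooled mice whose cells went into the bins, so numbers were taken to pair libraries, although no label says so outright. Deviations from the bin mean over 9650 genes correlated more for equal numbers (18 pairs, 0.0765 to 0.364, with 16 exceeding 0.1) than for unequal ones (36 pairs, -0.297 to 0.0536). The p-values measure the spread between these pools. A gene with 0 counts in a bin was set against a floor of 3 counts over that bin, which covers counting error only. Promoters come from RefSeq on GRCm38.p6, and no coordinates are given for the files' own build. Some genes of the lists are not reported here.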

Additional observations from a re-analysis of the deposited data

How the results depend on the processing

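The 4 genes kept the sign of all 15 bin differences given in the report under all 22 alternatives, 327 values in all, of which 31 moved by more than the spread between replicates. Most of these came from log2(TPM + 1), which compresses low levels: Slc1a3 for High over HiMed ran from -4.41 without HiMed replicate 1 to -0.48 on that scale, and Oxtr for High over Low from 2.56 on that scale to 7.86 without High replicate 3. Where leaving out 1 library left a bin at 0 counts, the value is a bound against 3 counts, -5.21 for the former without High replicate 2 and at least 8.12 for the latter without Low replicate 1. Entpd2 for High over Low stayed within 3.09 to 3.55. Leaving out 1 library could hardly turn a sign, since in CPM the bins compared overlapped only for Slc1a3 between High and HiMed. The sign of a bound largely follows from which bin is at 0 counts. The Oxtr difference of MedLow and Low has no fold, and TPM gives none for Oxtr between HiMed and MedLow, since MedLow is listed at 0.

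Of the 101 pathway genes tested, the count called for HiMed over MedLow was 26, and 15 on log2(TPM + 1), 17 on log2(TPM + 0.1) and 12 on log2(TPM + 1) without a filter. For MedLow over Low it was 19, and 10 on log2(TPM + 1) without a filter. The cause was not tested. Leaving out 1 library at a time gave 42 to 53 for High over Low (54 with all), 23 to 35 for High over HiMed (31), 16 to 28 for HiMed over MedLow and 11 to 20 for MedLow over Low. With the replicate block, which pairs libraries by number, the counts were 53, 35, 29 and 24 in that order, and none moved by 1.5 times. DESeq2 gave 58, 32, 30 and 22. Fits in edgeR without the robust estimate of the spread, chosen after seeing the data, gave 54, 29, 26 and 19. Genes of a few counts, such as Oxtr in Low and MedLow, are limited by depth.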
